A study of Mus musculus with 6 samples.

Results

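The proteasome genes examined here were the protein-coding mouse genes whose symbol is Psm followed by a letter from a to g, a number and, in 1 case, the suffix ip. The symbol rule took 49 of the 21887 protein-coding genes that RefSeq lists for GRCm38.p6, whose coordinates are those of mm10, the build of the deposited lists. The rule reads symbols only and uses no measured value. Of the 49, 48 encode subunits, regulators or assembly factors of the proteasome. The remaining one, Psmc3ip, encodes a partner protein of Psmc3 that acts in meiotic recombination and is not itself part of the particle.

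The data were ATAC-seq peak lists, which mark DNA that a transposase can reach and cut, from an immortalised line of mouse atrioventricular cushion mesenchymal cells at passage 6. All cells carried the H- 2Kb-tsA58 transgene, in which an interferon-responsive major histocompatibility promoter drives a temperature-sensitive viral T antigen, so the line is a proliferating model and both conditions share that feature. Cells were kept for 48 h in 5.5 mM glucose (normal glucose) or 25 mM glucose (high glucose), with 3 libraries each, to ask whether high glucose alters their open chromatin. The labels do not say whether the libraries of a condition stem from separate cultures, and a p-value here reflects the spread among these libraries, possibly a technical one. The lists of normal-glucose libraries 1, 2 and 3 held 24263, 66 and 40350 peaks and those of high-glucose libraries 1, 2 and 3 held 22156, 25020 and 22598. The list of 66 peaks touched none of the 49 genes and was left out, leaving 2 libraries of normal and 3 of high glucose. Read depth is unknown, and a longer list reaches weaker sites. A gene-end peak is a peak that lies at least in part within 1 kb of the start or end of a gene. Of 10 cushion mesenchyme markers 6 carried one in every one of the 5 libraries, Twist1, Postn and Col1a1 in some, and Pdgfra in none. None of 4 endothelial, 3 heart muscle or 4 epithelial markers did so in all 5, and 1 of 3 blood markers, Spi1, did. The endothelial marker Kdr had one in 4 libraries, and the blood marker Cd4 in both normal-glucose libraries only. Of all protein-coding genes 35.7% carried one in all 5 libraries and 48.0% in none.

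The proteasome is the cell's main machine for degrading proteins that carry ubiquitin chains. Its barrel-shaped core has outer rings of alpha subunits, encoded by Psma genes, that gate the entrance, and inner rings of beta subunits, encoded by Psmb genes, that hold the cutting sites. A regulatory cap of ATPases (Psmc) and non-ATPase subunits (Psmd) recognises, unfolds and feeds in the substrate, while Psme activators, the Psmf1 inhibitor and dedicated chaperones (Psmg and some Psmd genes) modulate or assemble the particle. Most of these genes are expressed in every cell type, and Nfe2l1 is the transcription factor known for raising them together when proteasome activity is short.

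Most proteasome genes carried accessible chromatin at a gene end in both glucose conditions. A gene-end peak was present in all 5 libraries at 30 of the 49 genes, in some libraries at 14 and in none at 5. Of all protein-coding genes 35.7% carried one in all 5 libraries and 48.0% in none. The normal-glucose libraries 1 and 3 held a gene-end peak at 36 and 41 of the 49 genes, against 42.4% and 49.8% of all genes. The high-glucose libraries 1, 2 and 3 held one at 35, 42 and 38, against 41.6%, 44.5% and 43.0% of all genes. The counts of the 2 conditions overlapped, with means of 38.5 ± 3.54 genes in normal glucose (SD, n = 2) and 38.3 ± 3.51 in high glucose (SD, n = 3).

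**Figure D1:**
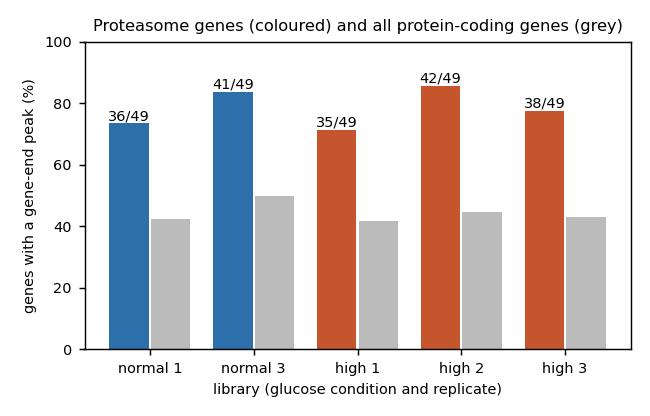
Share of the 49 proteasome genes (coloured bars, blue for normal and red for high glucose, with the count above) and of all protein-coding genes (grey bars) with a gene-end peak, by library. The proteasome bars run from 35 to 42 of 49 genes, each above the grey bar of its library, and the 2 conditions overlap.

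The peaks themselves were of middling strength. Strength is given below as the percentile of a gene's strongest gene-end peak in its own library's list, ranked by the authors' −log10 p, where 100 would be the strongest. Percentiles describe rank within 1 list, and those of lists of unequal length show no change between conditions. The median over the proteasome genes that had a peak was 59.8 and 79.4 in normal-glucose libraries 1 and 3, against 73.6 and 81.1 over all genes with a peak. In high-glucose libraries 1, 2 and 3 it was 63.7, 71.2 and 61.9, against 74.2, 76.2 and 74.8. Among the 30 genes with a peak in all 5 libraries, the percentile in the library where each was weakest had a median of 50.2, from 4.27 at Psmb2 to 88.3 at Psmd3. For the 7818 such genes among all protein-coding genes that median was 67.0. Proteasome genes carried a gene-end peak more often than all genes did, but a lower-ranked one. Taken over the whole gene and 1 kb beyond it, 34 of the 49 genes had a peak in all 5 libraries and 2 in none, against 44.6% and 35.6% of all genes. With every list cut to its strongest 22149 peaks, 28 genes had a gene-end peak in all 5, against 34.0% of all genes. With only peaks of −log10 q of at least 5, the count was 19 in all 5 and 8 in none, against 27.9% and 52.1%.

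**Figure D2:**
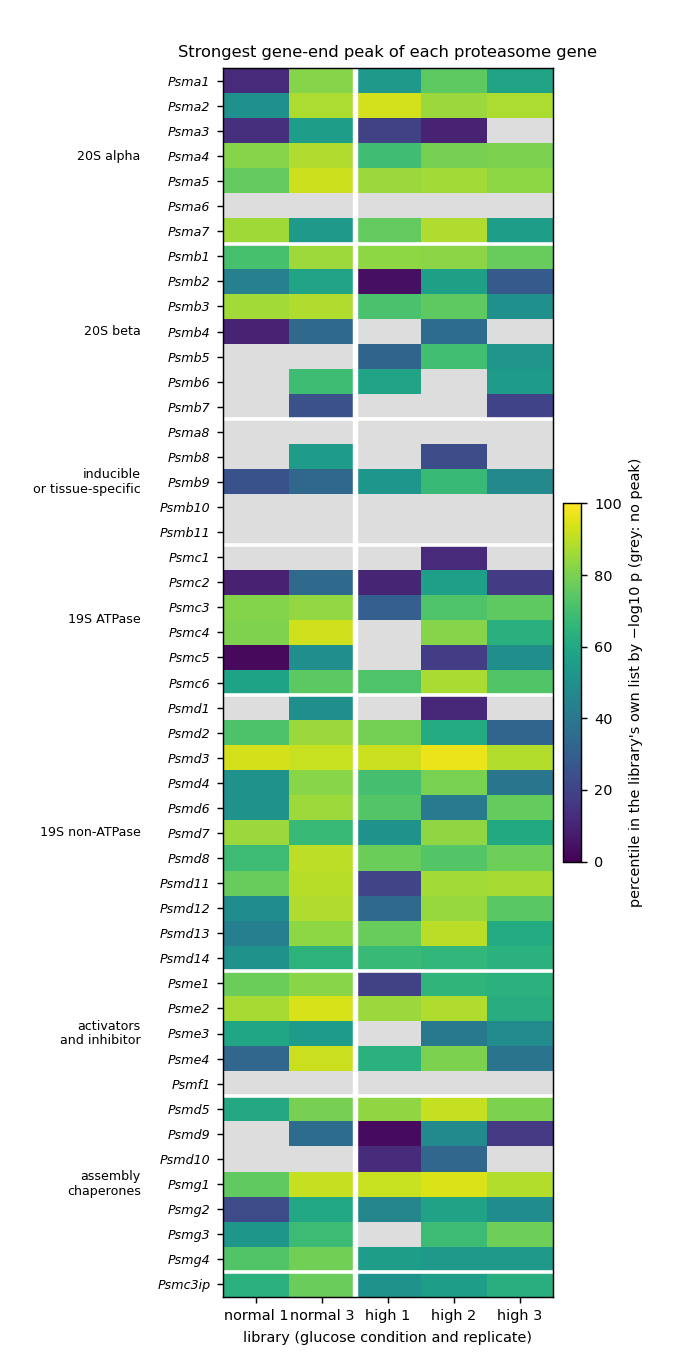
Percentile of the strongest gene-end peak of each proteasome gene in each library's own list (colour scale from 0 to 100, grey where the list holds no peak), with genes in rows grouped by role and libraries in columns. Psmd3 is high in every column, Psmb5 is grey in both normal-glucose columns only, and Psma6, Psma8, Psmb10, Psmb11 and Psmf1 are grey throughout.

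Each of the 7 constitutive genes of the outer core rings had a peak near at least 1 of its starts in all 5 libraries. Of 7 Psma genes of the constitutive core, 5 carried a gene-end peak in all 5 libraries, Psma3 in 4 and Psma6 in none. Over all protein-coding genes 35.7% carried one in all 5. RefSeq promoters list where transcription begins, and all 7 had a peak within 1 kb of at least 1 such start in all 5 libraries. The share over the 17492 genes with a listed start was 38.6%. Psma5 ranked highest among them, at the 75.9 and 92.6 percentile in normal-glucose libraries 1 and 3 and the 84.8, 86.1 and 83.1 in high-glucose libraries 1, 2 and 3. Psma1 was the lowest, at the 12.1 and 81.9 percentile in normal glucose and the 53.9, 75.3 and 58.5 in high glucose. The 2 normal-glucose libraries ranked at the extremes there, with all high-glucose libraries between them. Psma2, Psma4 and Psma7 lay between these genes, with lowest percentiles of 50.4, 69.3 and 53.6.

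In Psma6 and Psma3 the accessible start lay inside the annotated gene, away from the gene-end windows. Psma6 spans 55384222 to 55418459 on chromosome 12 and has listed starts at 55384222 and 55398825. No library had a peak in the promoter of the first, while all 5 had one over the second, at the 87.2 and 93.1 percentile in normal glucose and the 59.7, 75.6 and 93.8 in high glucose. Counted from that start, with negative positions upstream, the peak summits lay between -58 and -15 bp. At its gene ends Psma3 had only low peaks in most libraries, at the 13.5, 19.6 and 9.75 percentile in normal-glucose library 1 and high-glucose libraries 1 and 2, with 56.2 in normal-glucose library 3 and none in high-glucose library 3. It had a peak at its listed start at the 57.6 and 71.1 percentile in normal glucose and the 66.5, 56.2 and 77.5 in high glucose. The pair of Psma6 promoters is shown because 1 gene holds both a start with a peak in every library and a start with none. Each runs from 250 bases before to 50 after the start on the plus strand, from RefSeq (GRCm38.p6), and capitals mark bases under a peak in all 5 libraries.

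Psma6 upstream start, chr12:55383972-55384271: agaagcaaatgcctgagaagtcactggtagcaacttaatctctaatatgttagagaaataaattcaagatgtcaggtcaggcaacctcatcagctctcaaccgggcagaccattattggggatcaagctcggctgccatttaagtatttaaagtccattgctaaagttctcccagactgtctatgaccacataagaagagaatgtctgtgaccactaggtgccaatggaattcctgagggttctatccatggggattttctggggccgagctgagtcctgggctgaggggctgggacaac

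Psma6 downstream start, chr12:55398575-55398874: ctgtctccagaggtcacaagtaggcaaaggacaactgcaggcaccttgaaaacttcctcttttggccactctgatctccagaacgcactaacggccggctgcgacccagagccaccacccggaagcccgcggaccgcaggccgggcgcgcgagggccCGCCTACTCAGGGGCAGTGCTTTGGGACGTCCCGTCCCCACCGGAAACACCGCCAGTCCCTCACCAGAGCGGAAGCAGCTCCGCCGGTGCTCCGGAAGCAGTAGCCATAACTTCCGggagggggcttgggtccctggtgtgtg

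The inner core rings were less uniform, and they held the single gene whose gene-end peaks separated the conditions. Of 7 constitutive Psmb genes 3 carried a gene-end peak in all 5 libraries and 4 in some. Over all protein-coding genes 35.7% did so in all 5, a share near that of 3 of 7. Psmb1 ranked highest, at the 71.1 and 85.3 percentile in normal glucose and the 83.0, 82.4 and 76.6 in high glucose. Psmb3 followed with a lowest value of 50.1, and Psmb2 was the weakest, at the 43.5 and 58.5 percentile in normal glucose and the 4.27, 56.8 and 28.2 in high glucose. None of these 3 separated the conditions by presence of a gene-end peak.

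Psmb5, which encodes the subunit with chymotrypsin-like activity and the main target of bortezomib-type inhibitors, stood apart, with a peak at its start in each high-glucose list and no gene-end peak in the 2 normal-glucose lists. The percentiles of that peak were 32.1, 69.7 and 52.2 in high-glucose libraries 1, 2 and 3, with the authors' fold enrichments of 5.21, 8.45 and 6.25 and −log10 q of 4.58, 10.4 and 6.75. Neither normal-glucose list held any peak inside Psmb5 or within 1 kb of it. A two-sided exact permutation test of presence gave p = 0.2, as small as this test can give for 2 against 3 libraries. Of all protein-coding genes 0.064% showed this pattern, 14 in number. Psmb5 was the only one of the 49 proteasome genes to show it. The opposite pattern was seen at none of the 49, against 0.699% of all genes. With lists of equal length the high-glucose pattern was met by Psmb5 and Psmd9, against 0.484% of all genes. With only peaks of −log10 q of at least 5, Psmb5 lost its peak in high-glucose library 1 and no proteasome gene met the pattern, against 0.064% of all genes. Psmb5 had been noted for this pattern in earlier results on the same lists, so its separation is a description.

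The Psmb5 peak lay just upstream of the gene's only listed start, at 54617995 on the minus strand of chromosome 14. It spanned 98, 127 and 89 bp in high-glucose libraries 1, 2 and 3, with summits at -48, -65 and -34 bp from the start. No end of another protein-coding gene lay in the windows of Psmb5. The promoter is shown because its peak was the one that separated the conditions. It is given 5′ to 3′ on the gene's strand, from RefSeq (GRCm38.p6), with capitals for the 89 bases under the peak in all 3 high-glucose libraries.

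Psmb5, chr14:54617946-54618245, minus strand: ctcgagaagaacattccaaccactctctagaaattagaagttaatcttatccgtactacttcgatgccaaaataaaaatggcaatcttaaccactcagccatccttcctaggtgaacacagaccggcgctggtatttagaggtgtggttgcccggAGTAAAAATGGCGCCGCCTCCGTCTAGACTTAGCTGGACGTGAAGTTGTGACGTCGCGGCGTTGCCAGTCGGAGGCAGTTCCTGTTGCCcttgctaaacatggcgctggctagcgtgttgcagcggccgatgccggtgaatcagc

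**Figure D3:**
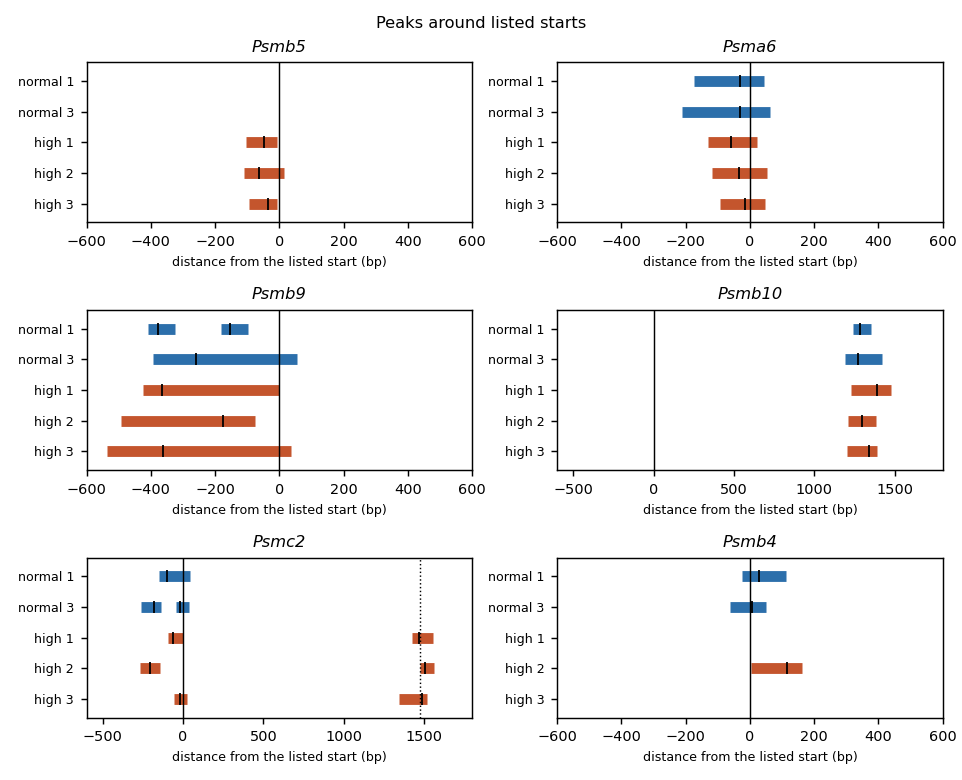
Peaks (bars) and their summits (ticks) by library around listed starts, with distance from the start in bp on the horizontal axis, positive into the gene, a solid line at the start, a dotted line at a second listed start, blue for normal and red for high glucose. Psmb5 has bars in the 3 high-glucose rows only, Psma6 (downstream start) has bars in all 5 rows, and the Psmb10 bars lie more than 1000 bp inside the gene.

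The other Psmb genes of the constitutive core did not separate the conditions. Psmb4, a core subunit without a cutting site, had a peak in normal-glucose libraries 1 and 3, at the 9.88 and 34.4 percentile, and in high-glucose library 2 alone, at the 35.2. Psmb6, which carries the caspase-like site, had one in normal-glucose library 3 (69.0 percentile) and high-glucose libraries 1 and 3 (58.4 and 55.4). Psmb7, which carries the trypsin-like site, had one in normal-glucose library 3 and high-glucose library 3, at the 25.0 and 20.1 percentile. Each of these genes was present in libraries of both conditions. The 3 genes for the constitutive cutting subunits, Psmb5, Psmb6 and Psmb7, all lacked a gene-end peak in normal-glucose library 1 and none had one in all 5 libraries. Of all protein-coding genes only 42.4% had one in normal-glucose library 1 and 35.7% in all 5. With windows of 2.5 kb, Psmb7 had a peak in all 5 libraries.

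By gene-end peaks the inducible and tissue-specific core subunits were the least accessible group, while at listed starts 1 of 4 with an entry had a peak in all 5 libraries, as in the constitutive Psmb genes. Of 5, 1 carried a gene-end peak in all 5 libraries, 1 in some and 3 in none. The shares over all protein-coding genes were 35.7% in all 5 and 48.0% in none. A group of 5 genes is too small to be told from those shares. Psmb9, an immunoproteasome subunit induced by interferon gamma, had its peak at the 25.2 and 33.9 percentile in normal glucose and the 52.4, 67.7 and 47.2 in high glucose. All 3 high-glucose values stood above both normal-glucose values, but these are ranks in lists of unequal length and were not tested. Among genes with a peak in all 5 libraries, Psmd5 showed the same order. Psma4, Psmb3, Psmc3, Psme1, Psmg4 and Psmc3ip showed the opposite order, with both normal-glucose values above all 3 high-glucose values. The start of Psmb9 lies 226 bp from the divergent start of Tap1, a peptide transporter of antigen presentation, so the peak belongs to both genes. Psmb8, its immunoproteasome partner nearby, had a peak only in normal-glucose library 3 and high-glucose library 2, at the 55.1 and 23.6 percentile, with summits at -551 and -488 bp from its start. Psmb10, the third immunoproteasome subunit, had no gene-end peak, but all 5 libraries held a peak inside the gene, between the 58.2 and the 85.7 percentile, with summits 1275 to 1391 bp downstream of the start. Psmb11, of the thymus, and Psma8, of the testis, had no peak in the gene or within 1 kb of it in any of the 5 libraries.

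The Psmb9 promoter is shown because Psmb9 was the only gene of this group with a gene-end peak in all 5 libraries. It lies on the minus strand of chromosome 17 within the major histocompatibility complex, and capitals mark the 87 bases covered by a peak in all 5 libraries, upstream of the start.

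Psmb9, chr17:34187281-34187580, minus strand: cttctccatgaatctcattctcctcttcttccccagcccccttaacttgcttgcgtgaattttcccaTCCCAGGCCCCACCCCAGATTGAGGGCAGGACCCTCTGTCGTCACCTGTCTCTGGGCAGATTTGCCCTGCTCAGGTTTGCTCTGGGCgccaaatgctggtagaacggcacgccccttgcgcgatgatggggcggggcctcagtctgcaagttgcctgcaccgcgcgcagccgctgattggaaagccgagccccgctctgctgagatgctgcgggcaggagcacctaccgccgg

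The genes of the cap ATPases were split. Of 6 Psmc genes 3 carried a gene-end peak in all 5 libraries and 3 in some. Over all protein-coding genes 35.7% did so in all 5, a share that 3 of 6 genes cannot be told from. Psmc6 ranked highest, with percentiles of 58.1 and 74.9 in normal glucose and of 72.3, 87.3 and 72.8 in high glucose. Psmc3 had its lowest value, 29.8, in high-glucose library 1 and stood between 72.6 and 83.9 in the other libraries. Psmc2 was the weakest, at the 9.19 and 34.6 percentile in normal glucose and the 10.4, 56.5 and 17.6 in high glucose. Psmc4 and Psmc5 had a peak in every library but high-glucose 1. At Psmc4 it ranked at the 80.6 and 92.7 percentile in normal glucose and the 81.8 and 63.4 in high-glucose libraries 2 and 3, so 1 list lacked a peak that ranked well in the others. Psmc5 had percentiles of 2.49 and 49.8 in normal glucose and 18.1 and 49.9 in those 2 high-glucose libraries. Psmc1 had a peak in high-glucose library 2 alone, at the 12.1 percentile. In no ATPase gene did the presence of gene-end peaks separate the conditions.

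Psmc2 has a second listed start, at 21786747 on chromosome 5, and there the conditions did separate. A peak covered part of the promoter of that start in all 3 high-glucose libraries, at the 15.7, 5.55 and 18.4 percentile, and in neither normal-glucose library. Of 21263 listed promoters of protein-coding genes 0.127% showed this pattern, and of the 44 promoters of proteasome genes 2 did, those of Psmb5 and of the second Psmc2 start. With lists of equal length only the Psmb5 promoter did, against 0.381% of all listed promoters. The Psmc2 start was singled out after its values were seen, and its peaks ranked low in each list.

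By gene-end peaks the non-ATPase cap genes were the most often accessible role group of more than 1 gene. Of 11 such Psmd genes 10 carried a gene-end peak in all 5 libraries, and at listed starts 8 of 9 with an entry did. The shares over all genes were 35.7% and 38.6%. Psmd1, a large scaffold subunit of the cap, had one in normal-glucose library 3 and high-glucose library 2 only, at the 49.8 and 11.6 percentile. Psmd3 had the highest-ranked peak of all 49 genes in the library where each was weakest. It ranked at the 93.4 and 91.7 percentile in normal glucose and the 91.9, 97.0 and 88.3 in high glucose, high in every library. Psmd8, with 68.7 and 89.8 in normal glucose and 77.5, 73.4 and 77.9 in high glucose, came next in its group. Psmd14, the deubiquitinase that removes ubiquitin chains during degradation, stood between 50.8 and 67.9 in the 5 libraries. Psmd4, a ubiquitin receptor, ranked at the 50.8 and 82.4 percentile in normal glucose and the 70.5, 79.9 and 39.0 in high glucose. Psmd11 and Psmd12 dropped in high-glucose library 1, to 21.0 and 34.0. Elsewhere Psmd11 stood at 76.9 or above and Psmd12 at 48.5 or above. Psmd2, Psmd6, Psmd7 and Psmd13 made up the rest of the group, each present in all 5 libraries with a lowest percentile between 32.5 and 50.9.

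Of the activator genes, both subunits of the interferon-inducible ring, Psme1 and Psme2, had a peak in all 5 libraries. Psme2 ranked at the 86.9 and 93.8 percentile in normal glucose and the 84.8, 87.9 and 62.2 in high glucose, taking the strongest of its peaks. All 5 libraries, of both conditions, held a second peak with its summit between -628 and -596 bp, near the start of Rnf31. At its own promoter the values were 68.3 and 93.8 in normal glucose and 35.6, 77.2 and 62.2 in high glucose. Psme1 ranked at the 77.4 and 82.4 percentile in normal glucose and the 19.6, 65.6 and 64.0 in high glucose, with high-glucose library 1 far below the others and both normal-glucose values above all 3 high-glucose values. These too are ranks in lists of unequal length and were not tested. Psme4, the nuclear activator that acts on acetylated histones, had a peak in all 5, from 32.9 in normal-glucose library 1 to 92.1 in normal-glucose library 3. Psme3, the nuclear ring activator, lacked one in high-glucose library 1 only and had percentiles of 59.1 and 55.1 in normal glucose and 40.4 and 48.1 in high-glucose libraries 2 and 3. The value of 40.4 belongs to a peak at the far end of the gene, and the peak at the Psme3 start ranked at 7.19 in that library. Psmf1, which encodes the inhibitor, had no gene-end peak, and at its listed start inside the annotated gene a single library, normal-glucose 3, held one, at the 27.1 percentile.

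Assembly chaperone genes had gene-end peaks in all 5 libraries in 4 of 7 cases, against 35.7% of all protein-coding genes. Psmg1, of the alpha-ring chaperone pair, ranked highest, at the 75.5 and 91.2 percentile in normal glucose and the 91.7, 94.4 and 88.3 in high glucose. Psmg2, its partner, was the weakest of those 4, at the 22.9 and 60.0 percentile in normal glucose and the 45.4, 57.6 and 48.6 in high glucose. Psmd5, a chaperone of the cap, and Psmg4 had lowest values of 60.4 and 54.0. Psmg3 lacked a peak in high-glucose library 1 only, with 52.9 and 68.6 in normal glucose and 68.7 and 77.8 in high-glucose libraries 2 and 3. Psmd9 had one in all 3 high-glucose libraries, at the 2.75, 47.6 and 16.4 percentile, and in normal-glucose library 3 at the 35.2 (p = 0.8, two-sided exact permutation test). Psmd10, known as gankyrin, had one in high-glucose libraries 1 and 2 alone, at the 12.7 and 33.0 percentile (p = 0.6, two-sided exact permutation test). Neither difference reached the smallest p of 0.2, and every Psmd9 and Psmd10 peak stood below the 50 percentile of its list. Psmc3ip, the gene outside the particle, had a peak in all 5 libraries, between the 50.9 and 77.3 percentile.

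**Figure D4:**
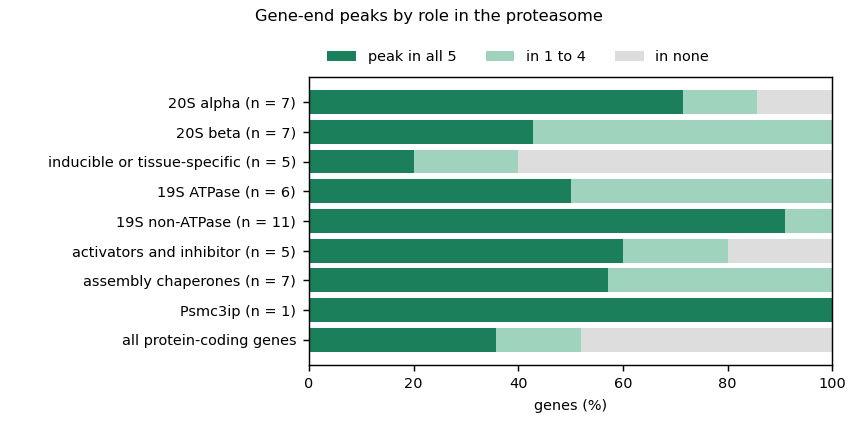
Share of genes with a gene-end peak in all 5, in 1 to 4 or in none of the libraries (dark green, light green and grey), for each role in the proteasome and for all protein-coding genes. The non-ATPase cap group shows 10 of 11 genes with a peak in all 5, and the inducible or tissue-specific group 1 of 5.

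Most of these peaks lay close to the listed start. Of the 49 genes 41 had a RefSeq promoter entry, and Psma8, Psmb1, Psmb2, Psmb7, Psmc3, Psmd3, Psmd7 and Psmg2 had none. Over the 5 libraries 39 of the 41 had a peak within 1 kb of a listed start in at least 1 library, and 26 in all 5, while Psmb10 and Psmb11 had none, against 38.6% and 46.1% of genes with an entry. Of the 167 strongest peaks, counted per gene and library, 150 (89.8%) had their summit within 200 bp of the start. In 133 (79.6%) of these 167 cases a peak within 1 kb, the strongest or another, covered a listed start. By library the share within 200 bp ran from 86.5% to 93.9%, against 78.2% to 79.8% over all genes. The share of cases with any such peak covering a start was above that of all genes in 4 libraries. It was below it in high-glucose library 1, at 66.7% against 68.7%. The median summit lay between -49.5 and -18 bp from the start, depending on the library, and between -48 and -43 bp over all genes. Peaks were 86 to 575 bp wide, with fold enrichments from 4.05 to 16.2. Their median width was 150 to 208 bp by library, below that of all genes with such a peak, 195 to 261 bp, in each of the 5.

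Proteasome promoters were rich in CpG pairs and, more often than others, held an ETS match. The 44 promoters of the 41 genes had a median GC content of 58.2%, against 52.7% over all 32851 listed promoters. Of these 32851, 21263 belong to protein-coding genes. Of 21263 protein-coding promoters 30.0% held a peak in all 5 libraries, as did 27 of the 44, and the median GC content of those 6388 was 64.0%. The ratio of observed to expected CpG had medians of 0.749 in proteasome promoters, 0.384 in all and 0.824 in those with a peak. The ETS core CCGGAAG, searched on both strands, lay in 16 of the 44 promoters (36.4%), against 8.86% of all listed promoters and 22.8% of those with a peak. Of the 27 proteasome promoters with a peak in all 5 libraries, 44.4% held it. In 8 genes the match lay inside a peak in all 5 libraries, namely Psma6, Psmc6, Psmd6, Psmd11, Psmd12, Psme4, Psmg1 and Psmc3ip. Matches inside such a peak were not counted over all promoters, so this number has no background. The Sp1 core GGGCGG lay in 54.5% of the proteasome promoters and 66.7% of the 27 with a peak in all 5 libraries. It lay in 35.7% of all listed promoters and 77.2% of those with a peak. The NF-Y core CCAAT lay in 34.1% of the proteasome promoters and 37.0% of the 27. It lay in 37.4% of all listed promoters and 45.3% of those with a peak. These are descriptions of sequence, and no binding was measured.

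The core of the antioxidant response element TGANNNNGC, the type of site that Nfe2l1 and Nfe2l2 recognise, lay in 26 of the 44 promoters (59.1%). It lay in 41.3% of all listed promoters and 44.5% of those with a peak in all 5 libraries. Of the 27 proteasome promoters with such a peak, 63.0% held it. In 9 genes a match lay inside a peak in all 5 libraries, namely Psma4, Psma5, Psma6, Psmd8, Psmd12, Psme2, Psme4, Psmg4 and Psmc3ip. Here too no count over all promoters was made. The stricter form TGACNNNGC, which is contained in the first and was added after seeing the data, lay in 13.6% of proteasome promoters, against 12.4% of all and 15.8% of those with a peak. Of the 27 proteasome promoters with a peak, 11.1% held it. Psmb5 held it in the copy TGACGTCGC, which starts 47 bp upstream of the start and lay under the peak of all 3 high-glucose libraries. The AP-1 core TGACTCA, which can overlap these, lay in 1 of the 44 promoters, that of Psmd9, and in none of the 27 with a peak. It lay in 1709 of all 32851 listed promoters and in 190 of the 6388 with a peak in all 5 libraries. The interferon-stimulated response element core GAAANNGAA, also added after seeing the data, lay in 7 promoters (15.9%), against 8.56% of all and 5.32% of those with a peak. Of the 27 proteasome promoters with a peak, 14.8% held it. None of the 7 belonged to Psmb8, Psmb9 or Psmb10, and only the match of Psme1 lay inside a peak in all 5 libraries. Of the E-box CACGTG, the TATA core TATAAA, the nuclear respiratory factor core GCATGCGC and the YY1 core AAGATGGCG, a match lay in 4, 4, 3 and 2 of the 44 proteasome promoters, against 7.15%, 13.6%, 2.71% and 1.40% of all listed promoters.

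**Figure D5:**
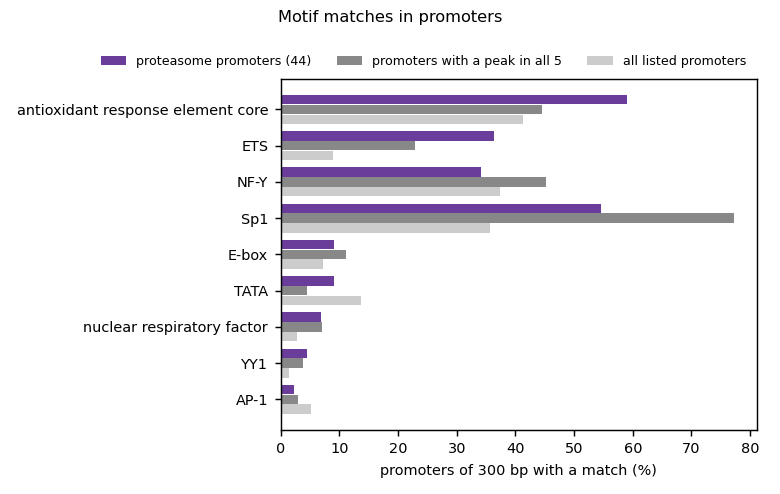
Share of promoters of 300 bp that hold a match to each motif on either strand, for the 44 proteasome promoters (purple), protein-coding promoters with a peak in all 5 libraries (dark grey) and all listed promoters (light grey). ETS stands at 36.4% against 22.8% and 8.86%, while Sp1 stands at 54.5%, below the 77.2% of promoters with a peak. Only 27 of the 44 proteasome promoters held a peak in all 5 libraries.

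The promoters below show where such letters fall in well-ranked genes, each 5′ to 3′ on the gene's own strand from RefSeq (GRCm38.p6). In Psma5, the highest-ranked gene with a promoter entry, capitals mark the bases under a peak in all 5 libraries, which contain the match GCGTGCTCA, the reverse complement form of the antioxidant core. Psma4, Psmd8 and Psme2 are the next genes with that core under a peak in every library, ranked by their strongest gene-end peak. In these 3 genes capitals mark the match itself. At the Psme2 promoter itself the peak ranked as low as 35.6, in high-glucose library 1. Psma6 has no gene-end peak and so no such rank. In Psmg1 and Psmc6, the highest-ranked genes by the same measure with an ETS core under a peak in every library, capitals mark CCGGAAG.

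Psma5, chr3:108256676-108256975, plus strand: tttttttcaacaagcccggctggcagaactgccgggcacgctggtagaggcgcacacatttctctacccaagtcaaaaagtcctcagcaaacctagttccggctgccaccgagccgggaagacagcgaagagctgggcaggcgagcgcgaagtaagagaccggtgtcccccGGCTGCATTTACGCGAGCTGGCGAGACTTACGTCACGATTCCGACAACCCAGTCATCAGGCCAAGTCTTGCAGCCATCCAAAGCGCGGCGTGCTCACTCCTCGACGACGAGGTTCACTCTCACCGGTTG

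Psma4, chr9:54950609-54950908, plus strand: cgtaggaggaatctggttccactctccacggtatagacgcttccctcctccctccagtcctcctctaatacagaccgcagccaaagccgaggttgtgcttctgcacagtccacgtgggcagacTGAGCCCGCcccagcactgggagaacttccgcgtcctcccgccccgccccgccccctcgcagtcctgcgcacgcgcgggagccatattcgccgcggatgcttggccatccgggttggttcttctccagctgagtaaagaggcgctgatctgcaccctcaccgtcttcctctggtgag

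Psmd8, chr7:29180624-29180923, minus strand: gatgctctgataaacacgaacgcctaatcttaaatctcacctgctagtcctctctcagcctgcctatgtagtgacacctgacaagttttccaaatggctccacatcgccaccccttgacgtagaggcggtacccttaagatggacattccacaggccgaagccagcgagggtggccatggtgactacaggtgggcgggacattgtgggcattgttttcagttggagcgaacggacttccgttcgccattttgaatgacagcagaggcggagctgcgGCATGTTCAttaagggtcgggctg

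Psme2, chr14:55591052-55591351, minus strand: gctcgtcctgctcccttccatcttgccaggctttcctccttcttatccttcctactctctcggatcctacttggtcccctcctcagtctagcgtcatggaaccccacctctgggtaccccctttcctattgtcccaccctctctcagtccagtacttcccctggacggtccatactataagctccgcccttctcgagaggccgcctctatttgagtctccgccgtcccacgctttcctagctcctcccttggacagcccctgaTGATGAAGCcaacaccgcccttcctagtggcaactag

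Psmg1, chr16:95990911-95991210, minus strand: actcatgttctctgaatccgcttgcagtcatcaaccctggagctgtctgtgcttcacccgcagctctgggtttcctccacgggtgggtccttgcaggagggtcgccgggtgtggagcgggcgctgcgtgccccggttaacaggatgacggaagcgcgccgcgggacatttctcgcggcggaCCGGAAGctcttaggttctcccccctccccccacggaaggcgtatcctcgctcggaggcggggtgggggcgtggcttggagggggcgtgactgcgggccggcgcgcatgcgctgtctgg

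Psmc6, chr14:45329574-45329873, plus strand: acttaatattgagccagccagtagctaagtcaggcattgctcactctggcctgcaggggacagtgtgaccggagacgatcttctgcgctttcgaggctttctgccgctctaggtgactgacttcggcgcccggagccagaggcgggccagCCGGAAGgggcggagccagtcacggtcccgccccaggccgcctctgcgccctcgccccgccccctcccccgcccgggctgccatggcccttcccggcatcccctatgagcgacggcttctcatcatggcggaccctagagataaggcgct

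Genes that work with the proteasome but are not named Psm were accessible at least as often. Of 34 such genes that could be matched (Paaf1 was not), 27 carried a gene-end peak in all 5 libraries, 6 in some and 1 in none. Of all protein-coding genes 35.7% carried one in all 5 and 48.0% in none. None of the 34 separated the conditions, against 0.064% of all genes for the high-glucose and 0.699% for the normal-glucose pattern. This list and the antigen-processing list below were chosen with earlier results of these data known. Adrm1, a ubiquitin receptor of the cap, ranked at the 95.8 and 92.2 percentile in normal glucose and the 96.0, 97.4 and 91.6 in high glucose. Pomp, the chaperone that matures the core, ranked at the 58.9 and 92.2 percentile in normal glucose and the 84.4, 75.2 and 72.2 in high glucose. Sem1, a small cap subunit, had a peak in normal-glucose library 3 and high-glucose libraries 1 and 2 only, at the 78.9, 0.826 and 38.2 percentile. Ecpas, which encodes a proteasome adaptor, had no gene-end peak but a peak inside the gene in all 5. The factors that induce proteasome genes had well-ranked peaks in every library. Nfe2l1 stood between 74.2 and 87.8 and Nfe2l2 between 85.9 and 97.6. Rad23b, a shuttle for ubiquitinated proteins, stood at 99.5 or above in all 5. Of 12 genes of antigen processing and interferon response, 10 carried a gene-end peak in all 5 libraries, against 35.7% of all genes. None of the 12 separated the conditions. Among them H2-K1, the gene whose promoter the transgene borrows, stood between 81.9 and 88.3. All cells also carry that promoter in the transgene, and whether the peak belongs to H2-K1 itself was not tested. Ifngr2 had a gene-end peak in some libraries and Tap2 in none. Tap1, which shares its peak with Psmb9, had the percentiles of Psmb9 in every library but normal-glucose 3, where it reached 55.1.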

How the data were processed

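ATAC-seq peak lists of 6 libraries of 54000 cells each, sequenced as 50 bp paired-end reads per the labels, were used. Per the submitters' processing notes, which give no roles or settings, the tools named are MACS2 2.1.0, Bowtie 1.0.0, cutadapt 1.0, Picard 1.90, SAMtools 0.1.19, FastQC, DiffBind 1.12.3 and edgeR, with mm10 as the build. Transposase offset, duplicate and mitochondrial handling are not given in the sources used here. For each peak the deposited lists give the authors' −log10 p-value and −log10 q-value, a score, and a fold enrichment, which is a ratio. The other deposited value, the distance of the summit from the peak start, was used as given. Without counts of reads in the lists, presence of a peak was the quantity compared.

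Lists with at least 1000 peaks entered. A gene-end peak overlapped by at least 1 bp the window of 1 kb either side of a gene's start or end. Listed starts came from RefSeq promoters (250 bases before to 50 after a start). Percentiles ranked the −log10 p among a list's peaks on chromosomes 1 to 19, X and Y. Presence was compared per gene by exact permutation tests (two-sided p as double the smaller tail), and lists of genes were described by counts beside all protein-coding genes, with no test. The members and lists were chosen with earlier results of these data known. Named with values were members that separated the conditions, members with a peak in no or only some libraries, the highest and lowest ranked member of each role, and Adrm1, Sem1, Pomp, Nfe2l1, Nfe2l2 and Tap1. Other genes named were chosen after their values were seen. Alternatives are given in the closing section. The peak search was tested on planted peaks. Computation used SciPy 1.17.1, pandas 2.3.3 and numpy 2.4.6 under Python 3.11.15, with figures from matplotlib 3.10.9.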

Additional observations from a re-analysis of the deposited data

How the results depend on the processing

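The 30 proteasome genes with a gene-end peak in all 5 libraries became 19 with only peaks of −log10 q of at least 5 and 0 with all 6 libraries, since the list of 66 peaks held none. Restricting the genes to the 30 with no other gene end in their windows left 17. Without each library in turn the count ran from 30 to 34. It was 28 with lists of equal length, 30 with windows of 500 bp or with the summit in the window, 34 with windows of 2.5 kb or over the whole gene, 26 of 41 at listed starts, 29 of 48 without Psmc3ip and, chosen after seeing the data, 32 with gene ends or listed starts. The 5 genes with no gene-end peak became 8 at the stricter q, 2 over the whole gene, 2 at listed starts and 3 with gene ends or listed starts, and ran from 5 to 6 without each library.

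The high-glucose pattern was met by 0 genes at the stricter q and by 2 with lists of equal length, and by 1 to 2 without each library, the second gene being Psmd9 without normal-glucose library 3 and Psmd10 without high-glucose library 3. The normal-glucose pattern was met by 0 to 1 gene without each library, Psmb4 without high-glucose library 2. The Psmb5 difference in the share of libraries was 1 under all settings run except the stricter q, where it was 0.667 (p = 0.6, exact permutation test). The exact p elsewhere ran from 0.1 with all 6 libraries to 0.5 without a normal-glucose library, with 0.333 without a high-glucose library.

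The mean number of genes with a peak differed by -0.167 between conditions, high minus normal, which became 12.7 with all 6 libraries, 2.5 with lists of equal length and -2.67 at the stricter q, and ran from -2.67 to 2.33 without each library. With the replicate number as a block it was -2 over the 2 same-numbered pairs, too few to show whether the numbers pair the libraries. A gene without a peak is below the caller's threshold in that list, which is not the same as closed.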

Other observations

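Some proteasome genes started head to head with a neighbour. Of the 41 with a listed start 7 (17.1%) had the divergent start of another protein-coding gene within 1 kb upstream or overlapping by up to 100 bp, against 8.66% of the 17492 genes with an entry. The pairs were Psma2 with Mrpl32 at 205 bp, Psma7 with Ss18l1 at 19 bp, Psmb9 with Tap1 at 226 bp, Psmc5 with Ftsj3 at 101 bp, Psmd13 with Sirt3 at 85 bp, Psme2 with Rnf31 at 641 bp and Psmd10 with Atg4a at 196 bp. A peak between such starts cannot be given to 1 gene of the pair. In these pairs Psma2, Psma7, Psmb9, Psmd13 and Psme2 carried a gene-end peak in all 5 libraries, while Psmc5 and Psmd10 had one in 4 and 2. By annotated gene ends, 19 of the 49 genes had an end of another protein-coding gene within their windows. Psmd10 is not among the 19, and its partner Atg4a is known here from a listed start only.

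Psmc4, Psmc5, Psme3 and Psmg3 had a gene-end peak in every library but high-glucose 1 (8.16% of the 49 genes, against 1.91% of all genes). Psma3 had one in every library but high-glucose 3 (2.04%, against 1.15% of all genes). Psmd9 had one in every library but normal-glucose 1 (2.04%, against 1.59%). These last 2 shares, of 1 gene each, stand near those of all genes. With lists of equal length, Psmc4, Psme3 and Psmg3 were absent from high-glucose library 1 alone (6.12%, against 1.23% of all genes). Psmb9 and Psmc2 were then absent from normal-glucose library 3 alone (4.08%, against 1.01% of all genes).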
